A study of Homo sapiens with 4 samples.

Results

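The ERBB2 amplicon is described here as a fixed window of 1300 kb on chromosome 17, from position 39000001 to position 40300000 of hg38, in SKBR3 cells. Its members were the accessible sites that lay wholly inside this window, and they were taken by position alone. A site was made by merging peaks of the 4 deposited lists wherever they overlapped by at least 1 bp. The window held 1108 of the 307691 sites found on chromosomes 1 to 22 and X. SKBR3 is an established human breast cancer cell line that overexpresses the receptor HER2, the product of ERBB2. Chromatin was profiled by ATAC-seq, in which the transposase Tn5 cuts and tags open DNA. Cells were seeded in serum, starved for 8 h and then either left untreated or given TWEAK at 10 ng/ml for 48 h, with TWEAK replenished after 24 h. TWEAK is a cytokine of the tumour necrosis factor family, and its receptor is Fn14. There were 2 untreated and 2 TWEAK-treated libraries, all from this single line, and the study asked how TWEAK/Fn14 activation alters the chromatin of breast cancer cells.

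ERBB2 encodes a receptor tyrosine kinase that pairs with other receptors of its family and drives growth through the MAPK and PI3K pathways. In HER2-positive breast cancers the gene is usually present in many extra copies, together with neighbours such as STARD3, PGAP3, MIEN1 and GRB7, so that a whole stretch of chromosome 17 is multiplied. An amplified stretch offers more DNA to the transposase at every position. Copy number was not measured in these files, so more copies of a site and more opening per copy cannot be told apart. In the same way, a larger share of cells with an open site and a wider opening in each cell cannot be told apart.

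The sequences of the strongest members are shown first, since they mark where the signal of the block was highest. Both lie on the plus strand of hg38, and capitals mark motif matches on either strand. The strongest member lay in ERBB2 itself, 321 bp from the nearest annotated start site by its peak centre, and its printed bases leave out an annotated untranslated exon. They held 2 matches to the forkhead (FOX) motif TGTTTAC, which was found in 2.62% of the members and in 5.59% of all sites within 100 bp of the peak centre. The strongest member away from start sites lay in an intron of PGAP3 and held the SP/KLF motif GGGCGG, found in 8.66% of the members and in 10.5% of all sites.
ERBB2 strongest member, chr17:39703429-39703615: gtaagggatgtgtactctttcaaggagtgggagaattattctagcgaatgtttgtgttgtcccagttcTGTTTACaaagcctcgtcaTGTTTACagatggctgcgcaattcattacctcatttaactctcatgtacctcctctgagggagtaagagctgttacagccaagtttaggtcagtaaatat
PGAP3 intron, chr17:39675034-39675234: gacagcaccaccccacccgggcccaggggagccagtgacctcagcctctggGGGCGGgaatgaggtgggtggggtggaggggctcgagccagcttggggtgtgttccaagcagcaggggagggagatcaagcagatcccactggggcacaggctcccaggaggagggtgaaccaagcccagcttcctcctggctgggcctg

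A further set shows the 5 members with an NF-kB motif among the 8 whose signal was at least 2 times higher after TWEAK. NF-kB is the family of transcription factors that TWEAK/Fn14 signalling is known to activate. Capitals mark the leftmost match to the NF-kB motif within 100 bp of the peak centre, on either strand of hg38. This motif was found in 5.05% of the members and in 6.21% of all sites.
FBXL20 intron, chr17:39306924-39306983: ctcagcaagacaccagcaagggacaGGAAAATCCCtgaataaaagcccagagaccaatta
IKZF3 intron, nearer the gene's 3′ end, chr17:39773803-39773862: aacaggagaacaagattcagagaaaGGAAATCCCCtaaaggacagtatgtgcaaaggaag
IKZF3 intron, nearer the gene's 5′ end, chr17:39828517-39828576: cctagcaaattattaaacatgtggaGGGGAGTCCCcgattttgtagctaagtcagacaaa
NR1D1 intron, chr17:40096204-40096263: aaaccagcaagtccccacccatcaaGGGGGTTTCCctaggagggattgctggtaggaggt
Upstream of NR1D1, chr17:40105044-40105103: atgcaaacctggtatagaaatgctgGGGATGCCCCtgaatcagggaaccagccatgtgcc

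The deposited lists held 195388 to 228734 peaks, each 501 bp wide, and a value for each peak that was taken to be a p-value on the −log10 scale, against 1 background per list. The pileup and the background were recovered from these values, and signal is given below as fold over background, the pileup divided by the background of its list. The background, which rises with depth, ran from 1.85 to 3.59, so the lowest pileup listed was 2.79 to 3.79 times the background depending on the list. Over all sites present in the 4 lists, fold over background was higher after TWEAK by a median of 0.14 on the log2 scale, and changes of members are read against this shift. Promoters of 7 of 8 luminal epithelial marker genes were open in all 4 lists, at 57.4-fold to 199.6-fold over background. CDH1 had no promoter peak in any list. Among marker genes of other cell types, ALB and CD3E had no promoter peak in any list, PTPRC had a peak in 1 list, and DES and PECAM1 had a peak in 2 lists each.

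Peaks were packed far more densely in the window than beside it. The untreated lists held 949 and 923 peaks there, for replicates 1 and 2, and the TWEAK lists held 957 and 921. This amounted to 70.8 to 73.6 peaks per 100 kb. The 2 Mb before the window held 7.05 to 7.55 peaks per 100 kb, and the 2 Mb after it held 38.3 to 49.8. Peaks covered 36.6% and 35.6% of the window in the untreated lists and 36.9% and 35.5% in the TWEAK lists. The flank before was covered to between 3.53% and 3.78%, and the flank after to between 19.2% and 24.9%. Cover of the window therefore exceeded that of the flank before by 9.40 to 10.4 times, and that of the flank after by 1.43 to 1.85 times. Taking both flanks together, the window exceeded them by 22.9 percentage points ± 1.26 (SD, n = 4), and it did so in 4 of 4 lists (exact sign-flip permutation, two-sided p = 0.125, the smallest that 4 lists can give). The window was not chosen independently of these lists, so this excess is given as a description.

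The number of peaks and the cover did not separate the treatments. The window held 936 ± 18.4 peaks in untreated and 939 ± 25.5 in TWEAK-treated cells (SD, n = 2 each), a difference of 3 peaks (exact permutation p = 1). Cover was 36.1% ± 0.709 in untreated and 36.2% ± 0.981 in TWEAK-treated cells, a difference of 0.116 percentage points (exact permutation p = 1). With 2 libraries against 2 the smallest p is 0.333, so no comparison of the treatments could pass 0.05. In the flank after the window, cover was 24.4% ± 0.726 in untreated and 21.0% ± 2.62 in TWEAK-treated cells, and the groups did not overlap (exact permutation p = 0.333).

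**Figure D1:**
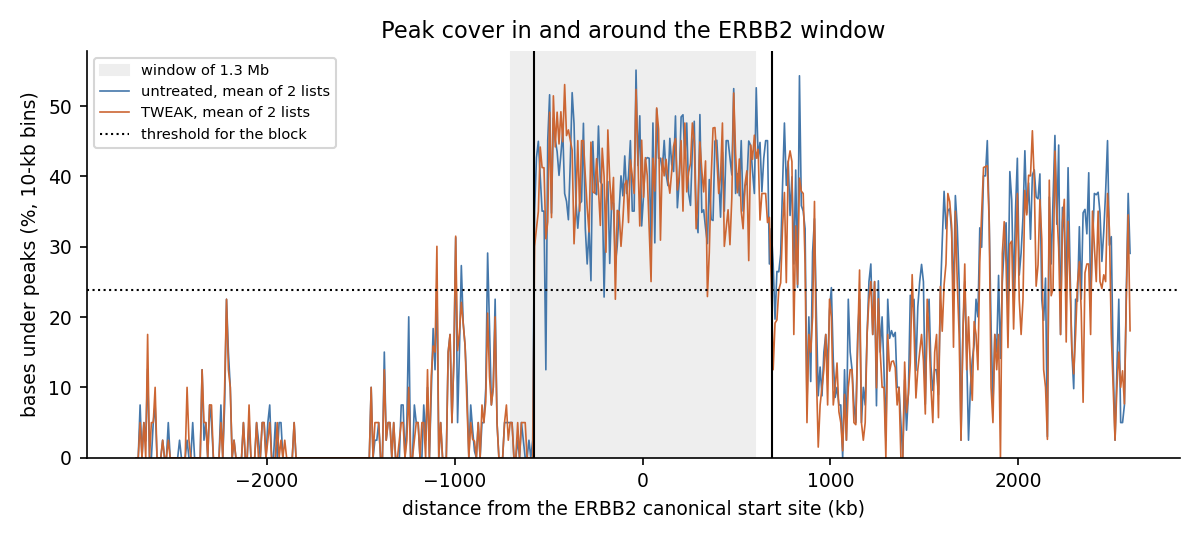
Share of bases under peaks in bins of 10 kb, in percent, against distance in kb from the canonical start site of ERBB2, as the mean of the 2 untreated lists and of the 2 TWEAK lists. Cover rises steeply at the left black line, the left edge of the block at position 39120001, and falls more gradually around the right black line at position 40390000. The dotted line is the threshold of 23.9% that defined the block, and grey marks the window.

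Among bins of 100 kb, 12 of the 13 in the window lay above the 99th percentile of the 30269 bins of the genome, which was 25.4% cover, whereas the genome's median bin was covered to 1.88%. The exception was the first 100 kb of the window, at 2.13%, which holds the 3′ part of PLXDC1. The other 12 bins were covered to between 29.1% and 44.6%. The bin from 39200001 to 39300000, over STAC2, RPL19 and the 3′ end of FBXL20, ranked 1 in the genome. The bins of the window with ERBB2 were covered to 41.0% and 39.7%. Among 29993 windows of the same length, 39 were covered more than the chosen window, and the densest of them lay on chromosome 8 or overlapped the chosen window on chromosome 17.

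The block had a sharp left edge and a ragged right edge. Bins of 10 kb were used with a threshold midway between the median cover of the window, 38.9%, and of the flanks, 8.77%. The longest run above this threshold, bridging up to 2 bins, ran from 39120001 to 40390000, a length of 1270 kb. The left edge fell on the same bin in all 4 lists, inside PLXDC1 and 34.4 kb from the 5′ end of this gene, which encodes a transmembrane protein. The right edge fell at 40390000 in both TWEAK lists, at 40400000 in untreated replicate 1 and at 40570000 in untreated replicate 2. It lay inside TOP2A, the topoisomerase gene often amplified with ERBB2, 27.9 kb from its 5′ end and beyond the end of the chosen window. A further run from 40420001 to 40570000 had 34.6% cover. The left edge moved to 39190001 when no bin was bridged. A threshold at the 95th percentile of the flanks left only a block from 39600001 to 40010000.

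Members were very uneven in strength. Within each list, the median peak of the window had a fold over background of 10.0, 10.3, 9.49 and 10.3 in untreated replicates 1 and 2 and TWEAK replicates 1 and 2. Medians over the whole lists were 7.53, 8.05, 8.74 and 10.8 in the same order. The 90th percentile was 84.3-fold to 103-fold in the window and 41.0-fold to 53.1-fold in the whole lists. A list held 86 to 95 peaks at 100-fold or more in the window, of 3060 to 5150 in all. The strongest peak of the window was at 923-fold to 1067-fold, and it was the strongest of the whole list in the replicates with the number 2. Of the 100 highest-ranked peaks of each list, 28, 25, 27 and 24 lay in the window, which held between 0.404% and 0.472% of the peaks of a list. Of the 1000 highest-ranked peaks, 70 to 73 lay in it.

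Strength varied along the window. In the 100 kb from 39600001, which hold PPP1R1B to PGAP3, a list had on average 24.0 peaks at 50-fold or more, and in the next 100 kb, which hold most of ERBB2, MIEN1 and GRB7, it had 25.5. Only 0.5 such peaks per list were found in the 100 kb from 39300001, inside FBXL20, although peaks covered 40.5% of that bin. The weakest peaks varied too. The 10th percentile of fold over background averaged 10.4 in the 100 kb from 39600001, and it was 9.10 to 12.4 in the single lists. It averaged 3.89 in the last 100 kb of the window, with 3.49 to 4.87 in the single lists, so these bins did not overlap.

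**Figure D2:**
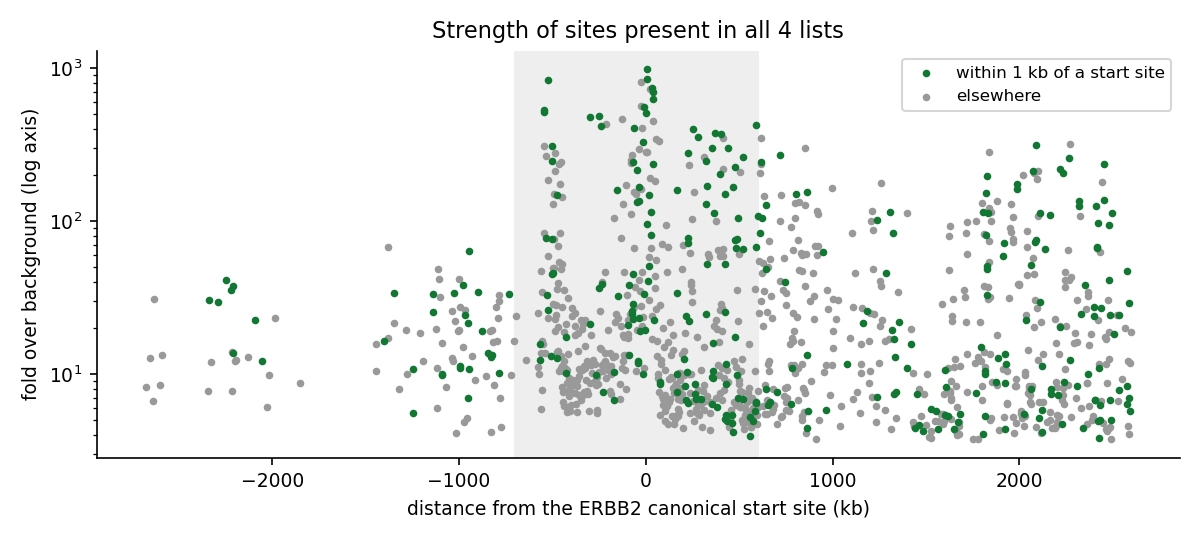
Fold over background on a log axis, as the geometric mean of the group means, for each site present in all 4 lists in the window (grey) and its flanks, against distance in kb from the canonical start site of ERBB2. Sites within 1 kb of a start site are green. Sites above 500-fold are seen only inside the window, and a dense band of sites near 10-fold fills the space between the strong ones.

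With overlap of 1 bp or more counted as presence, members were more often shared among lists than sites elsewhere. A peak was present in all 4 lists at 529 members, 47.7%, against 42.8% of all sites, and in exactly 3 lists at 233 members, 21.0% against 12.7%. Members seen in only 1 list made up 14.8%, against 29.2% of all sites. Merged members were also wider, with a median of 592.5 bp against 523 bp, and 19.1% of them exceeded 1 kb against 5.08% of all sites. Together, the merged members covered 65.6% of the window. Within a list, the median gap between neighbouring peaks of the window was 597 to 630.5 bp, so that merged sites often joined neighbouring peaks.

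**Figure D3:**
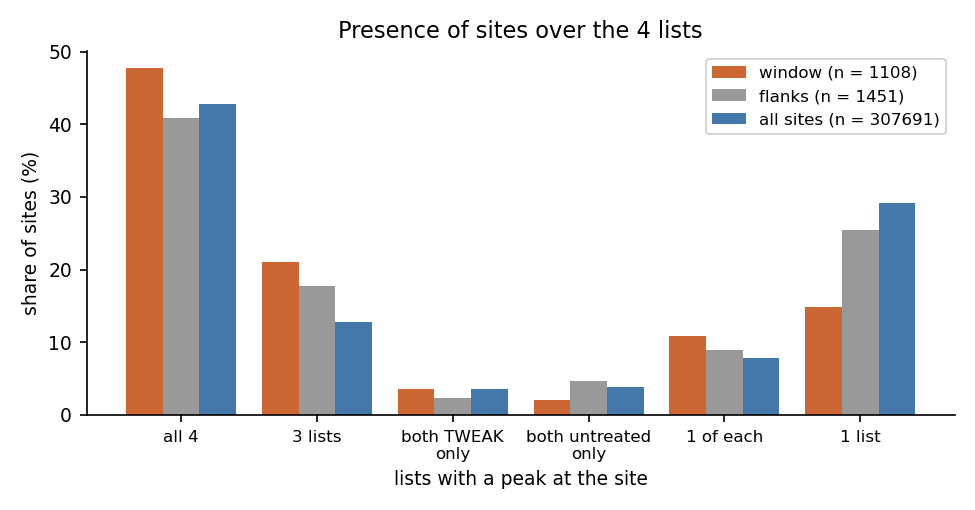
Share of sites in percent by the lists that held a peak, for the 1108 members, the 1451 sites of the flanks and all 307691 sites. The window has the highest bar for sites in all 4 lists and for sites in 3 lists, and the lowest bar for sites in 1 list.

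Introns of the window's genes held 561 members, 50.6% against 38.1% of all sites, and intergenic sequence held 203, 18.3% against 41.8%. A further 264 members lay within 1 kb of a start site of a protein-coding gene, 23.8% against 16.2%. ERBB2 alone held 45 members, of which 21 were present in all 4 lists. Of these, 16 had a mean fold of at least 50. FBXL20, a gene for an F-box protein of ubiquitin ligases, held 138 members, and IKZF3, which encodes a lymphoid transcription factor, held 103.

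All 33 protein-coding genes with a start site in the window had a peak within 1 kb of a start site in all 4 lists, against 15299 of 19970 genes in the genome, 76.6%. The median gap between neighbouring peaks of the window was 597 to 630.5 bp in a list, shorter than the stretch searched. This count therefore carries little information on the promoters themselves. The median of the best-ranked promoter peak was 302-fold over background for the window's genes, against 51.7-fold for all genes open in 4 lists. In the flanks the median was 32.8-fold over the 20 open promoters before the window and 24.3-fold over the 73 after it. At 28 of the 33 genes, 84.8%, the peak reached 100-fold, as it did at 14.9% of the open promoters of the genome. Of the 100 strongest promoters of the genome, 20 lay in the window. Of the strongest 20, 5 lay in the window and the other 15 on chromosome 8.

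The promoters of the ERBB2 core ran from 142-fold at PNMT to the strongest of the genome at ERBB2. At ERBB2 (ENSG00000141736.14, chromosome 17, 39687914 to 39730426, plus strand) the best-ranked peak was 923-fold and 1067-fold over background in untreated replicates 1 and 2 and 932-fold and 1039-fold in TWEAK replicates 1 and 2. Replicates with the number 1 were lower than those with the number 2 in both groups, and the treatments overlapped. With a mean of 990-fold, this promoter ranked 1 in the genome. Its rank percentile lay at the top of the scale in every list, so its difference between the groups, -2.16e-06 points (exact permutation p = 1), carries no information on a change. The peak lay 3451 bp downstream of the canonical start site, and the nearest annotated start site was 321 bp from its centre. At the canonical start site the values were 407-fold, 548-fold, 540-fold and 579-fold in the same order of libraries, and the treatments overlapped again.

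ERBB2 carried several strong sites besides these. A member 5943 bp downstream of the canonical start site was 777-fold, 911-fold, 845-fold and 884-fold over background in the same order. An intronic member at 39723550 to 39724058, 23.7 kb downstream, was 702-fold, 795-fold, 705-fold and 720-fold. The groups overlapped at both. The members from 39701530 and from 39704675, in introns, had means of 286-fold and 285-fold.

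Next to ERBB2, MIEN1, a gene linked to cell migration, had a mean promoter fold of 744 and GRB7, an adaptor that binds receptor tyrosine kinases, of 703. PGAP3, which remodels GPI anchors, stood at 557 and STARD3, a cholesterol transfer protein of endosomes, at 410. PPP1R1B, an inhibitor of protein phosphatase 1, had 246-fold and TCAP, a titin-binding protein of muscle, 168-fold. For PPP1R1B that peak lay nearest to an internal start site, and the canonical one had 22.6-fold to 27.7-fold in the 4 lists. PNMT, the enzyme that makes adrenaline, had 190-fold, 208-fold, 151-fold and 21.7-fold in the usual order. The peak behind the 3 higher values lay upstream of the gene, around 39666807 to 39667307, and TWEAK replicate 2 listed no peak there. Its own value came from another, weaker peak closer to the gene, so the TWEAK mean rested on a peak absent from 1 list. At its canonical start site PNMT had 20.9-fold, 19.2-fold, 18.6-fold and 21.7-fold, and the treatments overlapped. Its log2 difference was -1.80 within 1 kb and -0.26 within 2 kb. In the 121 kb from PPP1R1B to GRB7, 35 of 62 members present in all 4 lists reached 50-fold, and 10 of the window's 13 members at 500-fold or more lay there.

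Genes of transcription and Mediator followed. MED1, a Mediator subunit that binds nuclear receptors, had a mean promoter fold of 491 and CDK12, a kinase of RNA polymerase II, of 423. MED24, another Mediator subunit, had 303, CASC3, of the exon junction complex, had 302, and MSL1, a scaffold of a histone acetyltransferase complex, had 151. The nuclear receptor genes THRA, for a thyroid hormone receptor, and NR1D1, a repressor of the circadian clock, had 380 and 375. For THRA the canonical start site had a mean of 114-fold. Among genes of protein turnover, ribosome and cell cycle, FBXL20 had 480, CDC6, which licenses DNA replication, 428, PSMD3 of the proteasome 356 and RPL19 of the ribosome 247. The groups overlapped at all 11 of these genes. WIPF2, a regulator of actin assembly, had 264.

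The cluster of gasdermin genes and ORMDL3 was mixed. GSDMA, a gene for a pore-forming gasdermin, had a mean of 404-fold near its best start site and 13.8-fold at the canonical one. ORMDL3, a regulator of sphingolipid synthesis, and its divergent neighbour LRRC3C shared a peak with a mean of 281-fold. GSDMB had 24.2-fold, with 8.00-fold at the canonical start site, and ZPBP2, a sperm protein gene, had 8.67-fold, the lowest of the 33. At IKZF3 the values were 98.4-fold and 132-fold in untreated replicates 1 and 2, and 220-fold and 232-fold in TWEAK replicates 1 and 2. The TWEAK lists were both higher, by 0.98 on the log2 scale (exact permutation p = 0.333).

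Genes known to be restricted to other tissues were included. CACNB1, a calcium channel subunit, had the second strongest promoter of the genome, with a mean of 850-fold. This peak lay 20.2 kb downstream of the canonical start site, where the mean was 312-fold, and 802 bp from the nearest annotated one. PLXDC1 had 534-fold near its best start site and 22.3-fold at the canonical one. RAPGEFL1 had 228-fold, STAC2 152-fold and NEUROD2, a neuronal transcription factor, 38.4-fold. CSF3, the gene of a granulocyte growth factor, had 12.3-fold within 1 kb. Within 2 kb it had a stronger peak, with 216-fold, 276-fold, 278-fold and 289-fold. By the best-ranked peak, fold over background was higher in both TWEAK lists at 2 of the 33 promoters, IKZF3 and STARD3. It was lower in both at 1, PNMT. In the genome these patterns held for 25.1% and 7.26% of the promoters open in 4 lists. The calls depended on the start site used. At the canonical start sites CACNB1 and GSDMA were also higher in both TWEAK lists, GSDMB was lower in both, and PNMT overlapped.

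**Figure D4:**
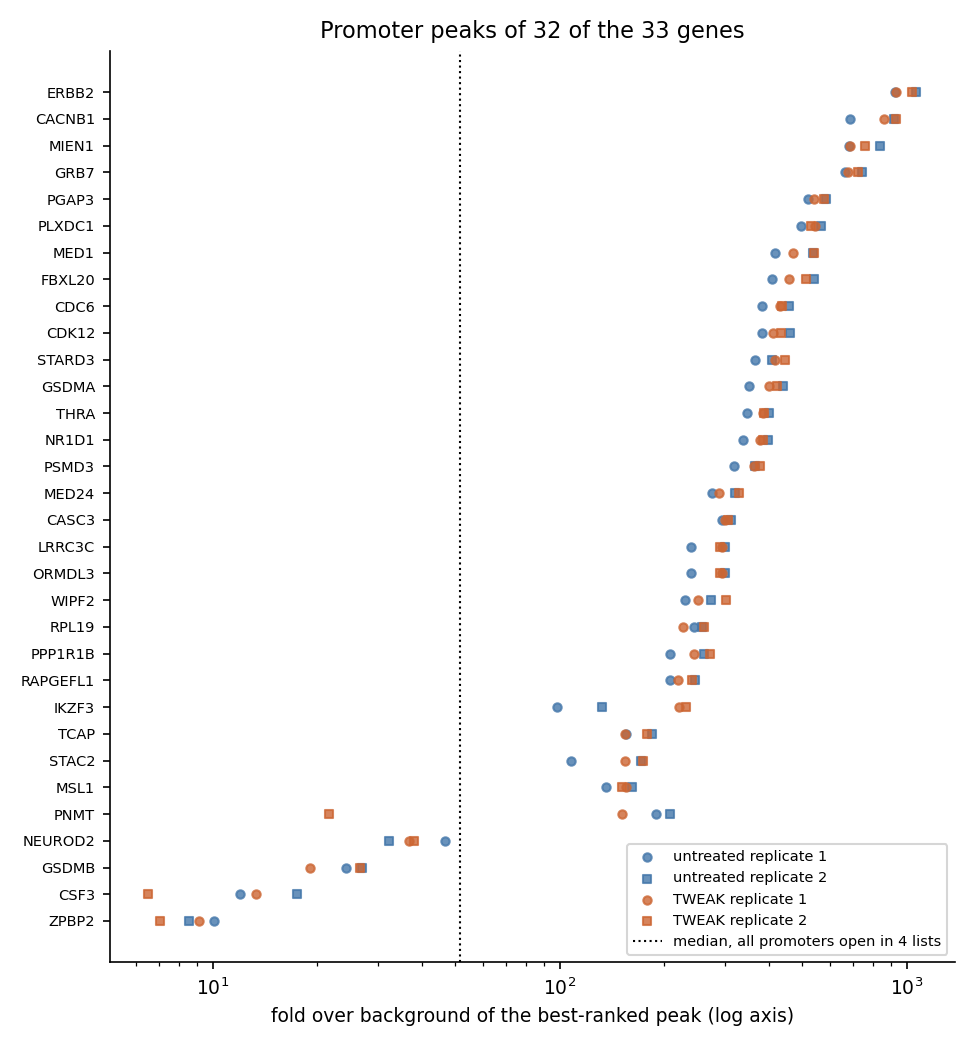
Fold over background, on a log axis, of the best-ranked peak within 1 kb of a start site for 32 of the 33 genes, with 1 point for each of the 4 libraries. Each of the 32 has a point for every library, 28 have a mean above 100-fold, and at IKZF3 both TWEAK points lie to the right of both untreated points. The dotted line marks the genome's median of 51.7-fold.

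Members with peaks in 1 treatment only were few. A peak was present in both TWEAK lists and in no untreated list at 39 members, 3.52%, against 3.6% of all sites. The opposite pattern was found at 23 members, 2.08%, against 3.79% of all sites. Where presence needed overlap with more than 50% of the width of the site's strongest peak, these counts were 36 and 37. Patterns with 1 library of each group were found at 20 to 39 members, so the count of gained members did not exceed the highest of these. Of the 39 gained members, 33 had a peak of an untreated list within 500 bp, 84.6%, against 27.5% of all gained sites. Of the 23 lost members, 22 had a peak of a TWEAK list that near, 95.7% against 34.1%. Peaks of the window had a median gap of 597 to 630.5 bp in a list. These higher shares therefore cannot be told apart from the peak density of the window. Of the 45 members in ERBB2, 0 were gained and 2 lost, too few to set apart from the shares of all sites given above.

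The gained members with the highest ranks were all weak. The strongest lay within GSDMA at 39963797 to 39964308, with 17.5-fold and 16.2-fold in TWEAK replicates 1 and 2. It was 61 bp from an untreated peak. The second lay in an intron of FBXL20 at 39283067 to 39283613, with 12.9-fold and 15.7-fold. The other three lay in introns of CDK12, which held 7 gained and 0 lost members in all. Among lost members, the strongest lay over an exon of RPL19 at 39202088 to 39203185, with 26.5-fold and 23.7-fold in untreated replicates 1 and 2. The second lay in an intron of ERBB2 at 39712478 to 39713351, with 17.6-fold and 29.97-fold. Both had a TWEAK peak within 150 bp. The other three lay inside ERBB2 close to a start site of PGAP3, near NEUROD2 and in FBXL20.

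Among the 529 members present in all 4 lists, the rank within a list and the fold over background gave different pictures. The rank percentile was lower in both TWEAK lists at 288 members, 54.4%, against 35.4% of all such sites, and higher in both at 47, 8.88% against 15.8%. The lists differed in length, from 195315 to 228644 peaks, and a rank percentile depends on the list it is taken in. With the same number of top peaks from each list, 227 of 508 members ranked lower, 44.7% against 30.1% of all such sites, and 62 ranked higher, 12.2% against 21.8%. With a deposited value of at least 5, 182 of 445 members ranked lower, 40.9% against 28.5% of all such sites. With peaks at 5-fold or more, 149 of 450 ranked lower, 33.1% against 19.7%, and 83 ranked higher, 18.4% against 30.2%. Without TWEAK replicate 1, 446 of 585 ranked lower, 76.2% against 57.6%. Without TWEAK replicate 2, 123 of 599 ranked higher, 20.5% against 30.6%, without untreated replicate 2, 95 of 591 did, 16.1% against 31.4%, and without untreated replicate 1, 73 of 585 did, 12.5% against 22.3%. Fold over background was higher in both TWEAK lists at 116 members, 21.9% against 34.8%, and lower in both at 113, 21.4% against 12.2%. The median difference over members was 0.02 on the log2 scale, compared with 0.14 over all such sites. The median difference in rank percentile was -4.59 points, compared with -1.75. The backgrounds of the lists differed, and their part in these shares was not tested.

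At the 188 members under 10-fold the median difference in rank percentile was -10.8 points, against -5.92 points over all such sites that weak. At the 127 members at 50-fold or more it was -0.01 points, against -0.219, where ranks lie close to the upper end of the scale. The median log2 difference of fold at these strong members was 0.05, against 0.09 over all sites that strong. Over all peaks of the window, the median rank percentile was 60.2 and 59.3 in the untreated lists and 53.2 and 47.4 in the TWEAK lists, and the groups did not overlap (difference -9.41 points, exact permutation p = 0.333). The median fold over background of the same peaks differed by -0.27 (exact permutation p = 0.667). The 3 members with the largest drop in rank were weak and lay in introns of LRRC3C and IKZF3 and within 1 kb of a start site of GSDMB. The strongest of them was at 12.1-fold in untreated cells.

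A limit of a 2-fold change in mean fold, chosen after the values were seen, separated few members. It was passed upwards by 8 members, 1.51%, against 4.59% of all sites present in 4 lists, and downwards by 1, 0.189% against 0.323%. These counts use the unshifted fold. Relative to the median of all shared sites 8 members were raised and 3 lowered. At the 9 members of the unshifted count the treatments did not overlap. This direction and size chose them, so they are described without a test. An NF-kB motif lay within 100 bp of the peak centre at 5 of the 8, whose sequences are printed above. In the genome it was found at 23.5% of the sites that passed the limit upwards and at 6.21% of all sites. Among the 39 gained members it was found at 3, 7.69%, against 20.1% of all gained sites.

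The largest difference lay in an intron of IKZF3, at 39773566 to 39774075. Its values were 8.64-fold and 13.9-fold in untreated replicates 1 and 2, and 66.8-fold and 79.1-fold in TWEAK replicates 1 and 2, 6.64 times higher on average. This site and the IKZF3 promoter were both higher in both TWEAK lists. The intronic site of FBXL20 at 39306707 to 39307227 was 13.4-fold in both untreated lists and 52.8-fold and 56.3-fold in the TWEAK lists. The site in NR1D1 at 40095988 to 40096521 was 29.6-fold and 30.4-fold in untreated and 115-fold and 120.2-fold in TWEAK-treated cells. The NR1D1 promoter itself lay at 338-fold, 400-fold, 377-fold and 384-fold, and its groups overlapped.

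The second IKZF3 site, at 39827074 to 39828788, was 10.9-fold and 13.0-fold in untreated and 35.7-fold and 46.6-fold in TWEAK-treated cells. It also held the AP-1 motif TGACTCA, found in 4.15% of the members and in 9.01% of all sites. AP-1 was found in 1 of the 8 members above the limit, against 25.7% of all sites that passed it upwards. The site upstream of NR1D1 at 40104763 to 40105284 was 13.4-fold and 18.8-fold in untreated and 44.1-fold and 47.6-fold in TWEAK-treated cells. A site between NR1D1 and MSL1 at 40114458 to 40115042, without the NF-kB motif, was 40.1-fold and 37.1-fold in untreated and 106-fold and 119-fold in TWEAK-treated cells. The remaining sites that were higher lay near an internal start site of ORMDL3, at 39921325 to 39922460, and in an intron of WIPF2, at 40262343 to 40262909. ORMDL3 also held the site that was lower, at 39925422 to 39925972, with 97.0-fold and 118-fold in untreated and 48.6-fold and 48.2-fold in TWEAK-treated cells. None of the 21 sites inside ERBB2 present in all 4 lists passed the limit. Over all such sites 4.59% passed it upwards and 0.323% downwards, so this count is too small to set ERBB2 apart.

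**Figure D5:**
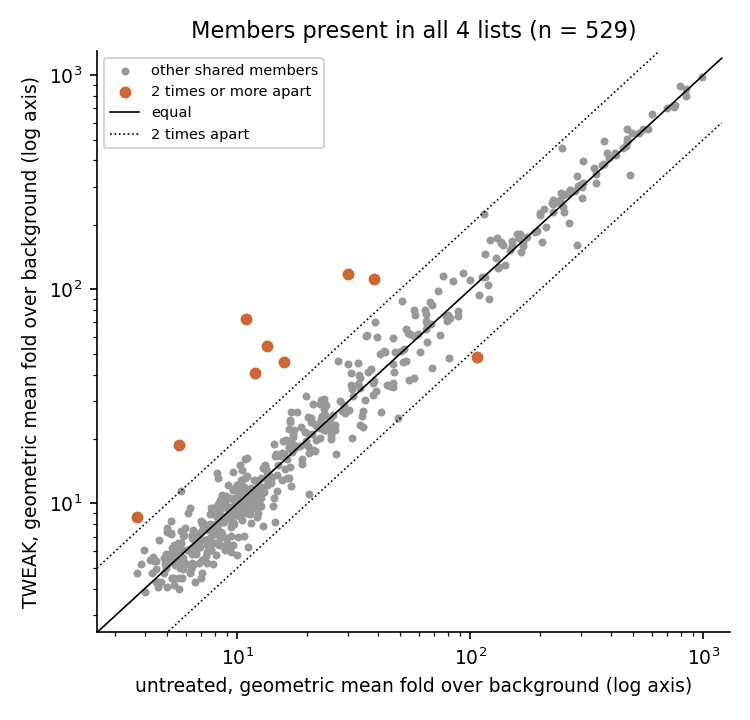
Geometric mean fold over background in the 2 TWEAK lists against the 2 untreated lists, both on log axes, for the 529 members present in all 4 lists. Most points lie between the dotted lines that mark a change of 2 times, and 8 orange points lie above them and 1 below.

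Motifs were counted on both strands in the 100 bp to each side of the centre of a member's strongest peak. Among the 551 members with a mean fold under 10, 2.72% held the TFAP2 motif GCCNNNGGC, against 10.3% of all sites that weak, and 2.72% held AP-1, against 7.85%. In these weak members FOX was found in 1.63% against 4.99%, NF-kB in 2.90% against 5.63%, GRHL in 0.907% against 2.15% and CTCF in 0 members against 0.812% of sites. ETS was found in 3.09% against 2.55%, SP/KLF in 6.53% against 6.86% and GATA in 7.44% against 8.85%. Among the 127 members present in all 4 lists at 50-fold or more, the TFAP2 motif was found in 18.9%, against 21.0% of all sites that strong. NF-kB was found in 13.4% of these strong members against 7.23%, and GATA in 6.30% against 3.61%. SP/KLF was found in 21.3% against 34.2%, ETS in 6.30% against 12.5%, AP-1 in 5.51% against 11.2%, FOX in 3.94% against 6.21% and GRHL in 1.57% against 3.95%. The CTCF motif was found in 7 members, 0.632% against 1.97% of all sites. All 7 were among the strong ones, 5.51% of them against 2.22% of all sites that strong. The ETS motif CCGGAA was found in 3.07% of the members against 3.75% of all sites, the GATA motif AGATAA in 6.77% against 7.96% and the GRHL motif AACCNGTT in 1.17% against 2.58%. The median GC content of this stretch was 50.2% in the members and 49.3% in all sites.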

How the data were processed

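ATAC-seq peak lists of 2 untreated and 2 TWEAK-treated SKBR3 libraries were used, grouped by their titles. According to the methods and the processing notes, the authors trimmed reads (Trimmomatic), mapped them to hg38 (Bowtie2), removed mitochondrial reads (Bamtools) and duplicates (Picard) and called peaks per library (MACS2). Versions, settings and any shift for Tn5 are not given in the sources used here. The deposited value of each peak has no name and was taken as a p-value on the −log10 scale, because every value equalled a Poisson tail for a whole-number pileup against 1 background per list, with a largest relative error of 4.46e-06 to 5.15e-06. The pileup counts P(X ≥ k), and the other convention would shift it by 1. It is a signal at the peak, not a read count, so count models such as the study's DiffBind were not run.

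Peaks on chromosomes 1 to 22 and X were merged where they overlapped by 1 bp, the strongest peak of a list gave a site its value, and the rank percentile was taken within each list. Peaks whose site crossed the window's bounds were left out of the members. Promoters were within 1 kb of any start site of protein-coding genes (GENCODE release 44), which favours genes with many start sites. Groups were compared by exact permutation of the labels, two-sided, and the window with its flanks by exact sign flips over the 4 lists. Neighbouring sites share libraries and are not replicates, and p-values measure only the spread between these libraries. All protein-coding genes with a start site in the window were counted. The sites named were the 5 with the highest lowest rank, the 5 gained and 5 lost with the highest lower rank, and the 3 that rose and 3 that fell most in rank. Members, gene groups, motifs and tests were chosen with earlier results of these data known. Values of 1 gene of the window and of 1 marker gene are not reported here. The method was tested on simulated lists in which neighbouring peaks never met, so the joining of neighbours in dense stretches was not tested. Python 3.11.15, numpy 2.4.6, pandas 2.3.3, scipy 1.17.1 and matplotlib 3.10.9 were used.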

Additional observations from a re-analysis of the deposited data

How the results depend on the processing

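The excess over the flanks and the count of promoters open in all lists changed little under the alternatives run. The excess lay between 22.6 and 23.5 percentage points when a library was left out and was 29.8 against the rest of chromosome 17, and the promoter count ranged from 31 to 33. The small differences between treatments had no stable sign. With column 5 of the deposited lists at 5 or more, the difference in peaks was -26.5, that in cover -1.02 and that in the ERBB2 promoter rank, which is at its ceiling, 8.89e-06. Keeping only peaks at 5-fold over background or more, that rank differed by 6.23e-05. Leaving out a library gave differences of -15 to 21 peaks, -0.578 to 0.809 points of cover and -0.000253 to 0.000249 points of rank. Replicate numbers do not pair the libraries by any label, and the deviations of same-numbered libraries correlated at 0.024 over 131751 shared sites. With the replicate block the differences were 3 peaks, 0.116 points of cover and -2.16e-06 points of rank, each with an exact p of 1, where 0.5 is the smallest possible. The block changed no call.

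Leaving out a library asks less of each pattern. It gave 84 to 107 gained and 80 to 94 lost members, 57 to 123 shared members ranked higher in the TWEAK lists and 354 to 446 ranked lower, 8 to 12 members raised 2 times or more and 2 to 4 lowered. Ranked lower were 182 members with column 5 at 5 or more and 149 with the stricter pileup, with which 83 ranked higher. Relative to the median of all shared sites 3 members were lowered, and requiring overlap with more than 50% of a peak's width gave 36 gained, 37 lost and 355 members in all 4 lists. The right edge was 40140000 with either stricter limit, 40625000 with bins of 25 kb and 40010000 with the 95th percentile of the flanks as threshold. It lay between 40390000 and 40570000 when a library was left out. The left edge was 39600001 with that threshold and 39190001 with no gap bridged. Within 2 kb, the CSF3 promoter differed by 0.21 on the log2 scale, where within 1 kb it differed by -0.64. The causes were not tested. Sites under the lowest pileup listed, 7 to 10 depending on the list, could not be seen.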

Other observations

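Beyond the end of the block, 4 more runs of at least 100 kb above the same threshold lay in the flank after the window. The run nearest to the block is given above. The others ran from 41610001 to 41830000 with 32.2% cover, from 41860001 to 41980000 with 31.7% and from 42020001 to 42200000 with 29.8%. The flank before the window held none of that length.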
